A study of Mus musculus with 4 samples.

Results

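The 10 lineage barcodes described here were chosen by their number of called cells in the eribulin multiome library, 10 or more, out of 490 barcodes called in any library. They were found in 1612 of the 6276 cells with a single called barcode. The cells are PB3, a mouse mammary tumor cell line, and their open chromatin was read by scATAC in one pair of libraries and by the ATAC library of a multiome assay in the other pair. Untreated cells (UNT and UNT_multiome) received no drug, and treated cells (ERI4 and ERI4_multiome) received 500 nM eribulin for 72 h and then 48 h without drug, for 4 rounds in all. There was 1 library per treatment and protocol, so no test between groups was made. The sources used here do not say whether both treated libraries came from the same culture. The intervals below are exact 95% binomial (Clopper-Pearson) intervals, which cover counting error only and not the difference between cultures.

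A lineage barcode is a short DNA tag that a lentivirus inserts into the genome of a cell. It is copied at each division, so all descendants of an infected cell carry the same tag, and a tag that makes up a larger share of a culture marks a lineage whose cells are more common there. Eribulin binds the ends of microtubules, blocks their growth and arrests dividing cells in mitosis. Accessibility is read with the Tn5 transposase, which cuts open DNA, and the cut sites in peaks count how much open chromatin was read in a cell.

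The sequences of the 10 barcodes are shown because they tell whether the tags are far enough apart to be told from each other. Each runs as the deposited list gives it, from the first base, with the short part in capitals and the linker and long part in lower case:
76-49517: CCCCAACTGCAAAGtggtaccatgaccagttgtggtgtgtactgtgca
6-93034: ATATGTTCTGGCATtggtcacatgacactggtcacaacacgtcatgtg
95-33662: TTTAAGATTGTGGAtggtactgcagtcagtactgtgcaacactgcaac
55-23349: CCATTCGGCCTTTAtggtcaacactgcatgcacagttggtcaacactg
39-41529: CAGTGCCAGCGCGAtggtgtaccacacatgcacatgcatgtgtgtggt
55-98358: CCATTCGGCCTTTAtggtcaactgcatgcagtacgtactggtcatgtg
89-6288: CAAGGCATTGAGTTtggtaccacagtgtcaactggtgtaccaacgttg
29-49561: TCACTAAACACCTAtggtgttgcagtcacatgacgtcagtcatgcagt
55-99383: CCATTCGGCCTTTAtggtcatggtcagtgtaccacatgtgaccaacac
55-37135: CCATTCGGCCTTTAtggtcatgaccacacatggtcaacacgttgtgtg

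The first number of a name is that of the short part (14 bases) and the second that of the long part (30 bases). Every long part in the list is made of 15 blocks of 2 bases, each AC, CA, GT or TG, so all long parts have a GC content of 50.0%. The short parts of the members range in GC content from 28.6% in barcode 95-33662 to 71.4% in barcode 39-41529. The members used 7 short parts and 10 long parts, because 4 of them (55-23349, 55-98358, 55-99383 and 55-37135) have the same short part, number 55. These 4 differ from each other only in the long part, at 22 of its 30 bases in 5 pairs and at 16 bases in the pair 55-98358 and 55-37135. Over all 45 pairs of members the long parts differ at 14 to 30 bases. Across the list, the long part nearest to that of each member differs at 8 bases, and no other called barcode had the long part of a member. Short part 55 was the most frequent one without drug, in 18 of the 484 barcodes and 321 of the 4772 called cells (6.73%, 6.03 to 7.47) of the untreated multiome library. It had 215 of the 1391 called cells (15.5%, 13.6 to 17.5) of the eribulin multiome library, where short part 76 was the most frequent. Those 215 cells were all of the 4 members, so this share follows from the count that chose them.

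A single barcode was called in 4772 of 9583 untreated and 1391 of 8114 eribulin multiome cells, but only in 29 of 9361 untreated and 84 of 16724 eribulin scATAC cells. The scATAC shares are therefore coarse: a count of 0 allows up to 10.3% (3 of 29 cells) in the untreated and 3.57% (3 of 84) in the eribulin scATAC library. Called eribulin multiome cells were deeper than those without a barcode, with a median of 5957 against 3914 cut sites, and they stand for 17.1% of their library. In that library 1019 cells carried a barcode name alone and 372 a name followed by the barcode's sequence, a difference whose origin the sources used here do not give. All sequences given for the members matched the list. The multiome libraries shared 123 droplet barcodes, and in none of these 123 pairs did both cells carry the same lineage barcode. The eribulin cell was called as a member in 15 pairs and the untreated cell in 2, so few pairs could have shared a member.

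The 10 barcodes made up 1352 of the 1391 called eribulin multiome cells (97.2%, 96.2 to 98.0), the count by which they were chosen, and 174 of the 4772 untreated ones (3.65%, 3.13 to 4.22). The other 39 called eribulin multiome cells were spread over 17 barcodes. The scATAC libraries played no part in the choice. There all 84 called eribulin cells carried a member (100%, 95.7 to 100), against 2 of 29 untreated cells (6.90%, 0.846 to 22.8). The members found by scATAC after eribulin were 7 of the 10, with 55-98358, 55-99383 and 55-37135 at 0.

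The label of expanded lineages held for 8 of the 10 barcodes when both forms of the name were counted. Their share was at least 2 times higher in the eribulin than in the untreated multiome library, whereas that of 55-99383 and 55-37135 was not. Among all 242 barcodes with more than 3 cells in either multiome library, 10 (4.13%) passed this size. Since the eribulin count chose the members, that difference in frequency is a description and no finding. In scATAC 5 members had enough cells for the same comparison and 2 passed it, and these 5 were also all the barcodes with more than 3 scATAC cells in a library (2 of 5, 40%). Barcodes 6-93034 and 95-33662 had 0 untreated scATAC cells, and against the limit of 3 cells their ratios were at least 0.921 and 0.690. For these barcodes the comparison could not show whether the share was 2 times higher.

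The 5 most frequent members were seen in both eribulin libraries. Barcode 76-49517 had 2 of 4772 cells in untreated multiome, 438 of 1391 in eribulin multiome, 0 of 29 in untreated scATAC and 25 of 84 in eribulin scATAC. It thus ranked 291st among the untreated multiome barcodes, tied with others at 2 cells, and first after eribulin. Barcode 6-93034 had 12, 403, 0 and 8 cells in the same order of libraries. Barcode 95-33662 had 6, 176, 0 and 6 cells. Both were rare without drug, with ranks 101 and 170. Barcode 55-23349 had 19, 146, 0 and 30 cells, and was the most frequent member in eribulin scATAC. Barcode 39-41529 had 40, 81, 2 and 11 cells and was the only member called in the untreated scATAC library. The ratio of its eribulin to its untreated share was the smallest of these 5 in multiome, at 6.95 (4.70 to 10.4). In scATAC it was 1.90 (0.414 to 17.6), and the other 4 have only lower bounds there.

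Barcodes 55-98358 and 89-6288 were not detected without drug. Barcode 55-98358 had 46 of the 1391 eribulin multiome cells (3.31%, 2.43 to 4.39) and 0 cells in each other library. A count of 0 in 4772 untreated cells allows 0.0629%, and against that limit its share was at least 52.6-fold higher after eribulin. The exact interval of the ratio has a lower end of 41.1, and among cells with at least 5000 cut sites the bound against the limit was 24.9-fold. It was also absent from the 84 called eribulin scATAC cells, which allows up to 3.57%, a limit above its multiome share. Barcode 89-6288 had 21 eribulin multiome cells (1.51%, 0.937 to 2.30), a share at least 24.0-fold higher than in untreated cells by the same limit, and 1 of the 84 eribulin scATAC cells. Its exact lower end was 17.9, and its bound at 5000 or more cut sites was 16.9-fold. Barcode 29-49561 was found in 2 untreated and 18 eribulin multiome cells, which gave a share ratio of 30.9 (7.39 to 274), and in 3 of the 84 eribulin scATAC cells. These 3 lineages were at or near the lower end of what either untreated library could show. Their ratios also depended on the form of the name, described below. Among the 1019 eribulin multiome cells named without a sequence, 55-98358 and 29-49561 had 0 cells and 89-6288 had 3.

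Barcodes 55-99383 and 55-37135 were among the more frequent lineages without drug, with ranks 30 and 17 of the 484 untreated multiome barcodes. Barcode 55-99383 had 36 of 4772 untreated cells (0.754%, 0.529 to 1.04) and 12 of 1391 eribulin cells (0.863%, 0.447 to 1.502), a ratio of 1.14 (0.542 to 2.25). Barcode 55-37135 had 57 untreated cells (1.19%, 0.906 to 1.54) and 11 eribulin cells (0.791%, 0.395 to 1.41), a ratio of 0.662 (0.313 to 1.28). Both intervals include 1, so neither a higher nor a lower share was resolved, and both barcodes were at 0 in the 2 scATAC libraries. This outcome depended on the form of the name, described next: all their eribulin cells were among the 372 named with a sequence, where their shares were 3.23% and 2.96%, more than 2 times the untreated shares, and none was among the 1019 named without one.

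The form of the name divided the members. All eribulin multiome cells of 55-98358, 29-49561, 55-99383 and 55-37135, 87 cells in all, carried the name with a sequence, as did 18 of the 21 cells of 89-6288. With names without a sequence alone, 5 barcodes reached 10 cells. Among the 1019 cells named without a sequence the first 2 members were ahead, with 36.7% for 76-49517 and 34.5% for 6-93034. Among the 372 cells named with a sequence the most frequent was 55-23349, at 22.8%, followed by 76-49517 at 17.2%. Cells named with a sequence were deeper, with a median of 7439 against 5539 cut sites. The part of the name form in these shares was not tested.

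The eribulin libraries of the 2 protocols ranked the same lineages differently. Barcode 76-49517 had close to the same share in both, 31.5% in multiome and 29.8% (20.3 to 40.7) in scATAC. Barcode 6-93034 had 28.97% in multiome but 9.52% (4.20 to 17.9) in scATAC, a ratio of 0.329 (0.141 to 0.654). The reverse held for 55-23349, with 10.5% in multiome and 35.7% (25.6 to 46.9) in scATAC, a ratio of 3.40 (2.22 to 5.07). Barcode 39-41529 was also more frequent in scATAC, at 13.1% against 5.82%, a ratio of 2.25 (1.08 to 4.24). For the other 6 members the interval of this ratio included 1. Among multiome cells named with a sequence, 55-23349 and 76-49517 were the 2 most frequent, as in scATAC. The share of 6-93034 there, 13.7%, was also nearer to scATAC than its 34.5% among names without a sequence. The match did not extend to 39-41529, which had 4.03% of cells named with a sequence and 6.48% of those named without one. Nor did it extend to 55-98358, with 12.4% of cells named with a sequence but 0 of 84 in scATAC. Run, protocol and culture cannot be told apart in these differences, and the part of the name form was not tested.

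Without drug the members fell into different chromatin clusters, which are the authors' 17 groups of cells with like accessibility. Barcodes 39-41529, 55-99383 and 55-37135 lay mainly in cluster 2, the largest untreated cluster of the multiome run, with 34 of 40 cells (85.0%, 70.2 to 94.3), 30 of 36 cells (83.3%, 67.2 to 93.6) and 43 of 57 cells (75.4%, 62.2 to 85.9). Cluster 2 held 34.6% of that library. Barcodes 6-93034, 95-33662 and 55-23349 had few cells there, 1 of 12, 1 of 6 and 2 of 19. Their most frequent clusters were cluster 6 for 6-93034 (5 of 12 cells) and cluster 3 for 95-33662 (4 of 6) and 55-23349 (8 of 19). Both untreated cells of 76-49517 were in cluster 3. The 3 lineages based in cluster 2 were also the 3 members most frequent without drug. Barcodes 55-98358 and 89-6288 had no untreated cells and so no untreated cluster.

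After eribulin most cells of each member lay in clusters that untreated cells hardly used. Several lineages were more frequent than other barcodes in a further cluster beside the common cluster 0, which held 78.5% of the eribulin multiome library. Barcode 76-49517 had 367 of 438 cells (83.8%) in cluster 0 and 16 (3.65%, 2.10 to 5.86) in cluster 13, where 0.525% of the other called cells lay. Barcode 55-23349 had 122 of 146 cells in cluster 0 and 4 in cluster 1, which held no other called cell of that library. These 2 lineages were the most uniform, with over 70% of same-barcode pairs of cells in 1 cluster (70.6% and 70.3%). Barcode 6-93034 was divided between cluster 12 (200 of 403 cells, 49.6%) and cluster 0 (173 cells, 42.9%). In 39-41529 clusters 0 and 11 had 34 of 81 cells each (42.0%, 31.1 to 53.5). Barcode 95-33662 had 95 of 176 cells in cluster 0 (54.0%) and 58 in cluster 10 (33.0%). The name form moved some of these values. Cluster 12 held 70.6% of the 51 cells of 6-93034 named with a sequence and 46.6% of the 352 named without one. In the same order, cluster 10 held 48.8% of 43 and 27.8% of 133 cells of 95-33662. Cluster 11 held 40.0% of 15 and 42.4% of 66 cells of 39-41529.

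Cluster 10 was shared by a second, much smaller lineage. Barcode 29-49561 had 8 of 18 cells there (44.4%, 21.5 to 69.2) and 7 in cluster 0, while 5.46% of the other called cells lay in cluster 10. The tags of 95-33662 and 29-49561 differ in both parts. Barcodes 55-98358 and 89-6288 had most cells in cluster 0, 30 of 46 (65.2%) and 16 of 21 (76.2%), and no second cluster with more than 4 cells. Barcode 55-37135 had 6 of 11 cells in cluster 0, and 55-99383 had 4 of 12, with 4 more in cluster 2.

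Seen from the clusters, a single lineage led in each of the clusters described above, to different degrees. Barcode 6-93034 had 200 of the 239 called cells of cluster 12 (83.7%, 78.4 to 88.1), 95-33662 had 58 of 83 in cluster 10 (69.9%, 58.8 to 79.5), 39-41529 had 34 of 66 in cluster 11 (51.5%, 38.9 to 64.0) and 76-49517 had 16 of 21 in cluster 13 (76.2%, 52.8 to 91.8). For cluster 11 this interval reaches below 50%, so a majority was not resolved there. In cluster 0, 76-49517 led with 367 of 876 (41.9%, 38.6 to 45.2). How often a barcode was called differed between these clusters, from 13.8% of the cells in cluster 0 to 43.7% in cluster 12. When each cluster was weighted by its number of cells in the library, the share of 6-93034 was 22.8% in place of 28.97%, and that of 76-49517 was 36.7% in place of 31.5%. The remaining 8 shares stayed within their counting intervals under this weighting, which was chosen after seeing the data.

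The scATAC cells were too few to resolve most of these cluster preferences. Of the 84 eribulin scATAC cells, 35 lay in cluster 1, 14 in cluster 5 and 14 in cluster 7, the main eribulin clusters of that run, which held 35.8%, 17.2% and 15.7% of its cells. Barcode 6-93034 had 1 of 8 cells in cluster 12 (12.5%, 0.316 to 52.7), an interval that includes its multiome share of 49.6%, against 5.26% of the other called cells. Barcode 76-49517 had 2 of 25 in cluster 13 (8.00%, 0.984 to 26.0), against 3.39% of the others. Barcode 95-33662 had 0 of 6 in cluster 10, which allows up to 50.0% and so does not differ detectably from 33.0%. Barcode 39-41529 had 0 of 11 in cluster 11, which allows up to 27.3%, below its multiome share of 42.0%. Its scATAC cells lay in cluster 1 (6 cells), cluster 7 (4 cells) and cluster 10 (1 cell). Barcode 55-23349, with 30 cells, was spread over 7 clusters, with 13 in cluster 1 (43.3%, 25.5 to 62.6). Barcode 76-49517, with 25 cells, was also spread over 7, with 10 in cluster 1.

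Some eribulin cells of the members lay in clusters typical of untreated cells. Those are the 8 clusters (2, 3, 4, 6, 8, 9, 14 and 16) that held a larger share of the untreated than of the eribulin library in both protocols. Of the members' eribulin multiome cells, 26 of 1352 (1.92%, 1.26 to 2.81) lay there, against 12 of the 39 cells of the other barcodes (30.8%, 17.02 to 47.6) and 1.57% of the library. The members differed among themselves. Of the cells of 55-99383 and 55-37135, the 2 lineages under 2 times their untreated share, 7 of 23 (30.4%, 13.2 to 52.9) were in these clusters, against 19 of 1329 cells (1.43%, 0.863 to 2.22) of the other 8. Both contrasts split barcodes by the eribulin multiome count that chose the members, or by a ratio made from it. They are therefore a description and no finding. Barcode 55-98358 had 5 of 46 (10.9%, 3.62 to 23.6), 4 of them in cluster 6 with only 1362 to 2339 cut sites, while 95-33662, 55-23349 and 89-6288 had none.

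In cluster 2 these cells were of lineages based there without drug. In cluster 6 most were of lineages with few or no untreated cells. Cluster 2 held 7 eribulin multiome cells of members, 4 of 55-99383, 2 of 55-37135 and 1 of 39-41529, which are the 3 lineages based in cluster 2 without drug. Cluster 6 held 10, of which the 3 of 6-93034 came from a lineage most frequent there without drug, 4 were of 55-98358, 2 of 76-49517 and 1 of 29-49561. Barcode 55-98358 had no untreated cells to compare with, and 76-49517 and 29-49561 had only 2 each. Both untreated cells of 76-49517 lay in cluster 3. Its eribulin cells in untreated clusters were 3 in cluster 3, 2 in cluster 6, 1 in cluster 8 and 2 in cluster 16. At 5000 or more cut sites no cell of 55-98358 remained in cluster 6 and none of 55-37135 in cluster 2. In the 7 cells of cluster 2, the nucleosome signal, described below, was 0.579 to 0.816 with a median of 0.654, under the lower quartile of untreated cells in that cluster (0.892). The name form moved with the result as well: the 4 members named only with a sequence had 13 of 87 cells (14.9%, 8.20 to 24.2) in the untreated clusters. The other 6 members had 4 of 276 cells (1.45%) there among names with a sequence and 9 of 989 (0.910%) among names without. In the opposite direction, 4 of the 174 untreated multiome cells of members (2.30%) lay in eribulin clusters, close to the 1.76% of their library. Cluster 10 held 2 of these cells. The first was of 95-33662, a lineage with 33.0% of its eribulin multiome cells in that cluster. It had 2603 cut sites and a nucleosome signal of 0.986. The second was of 55-37135, a lineage with 0 of 11 eribulin multiome cells in cluster 10.

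The nucleosome signal was lower with eribulin in all 6 lineages that had at least 5 cells in both multiome libraries, as it was in the libraries as a whole, where the median was 0.907 without drug and 0.668 with eribulin. In cells without a barcode it was 0.913 and 0.669, so the lower signal was not particular to the members. It divides the number of fragments that span 1 nucleosome by the number of shorter, nucleosome-free fragments, and a lower value means that more of the fragments came from DNA without a nucleosome. Barcode 39-41529 had a median of 0.961 (quartiles 0.856 and 1.04, 40 cells) without drug and 0.635 (0.596 and 0.714, 81 cells) with eribulin, a change of -34.0%. In 55-37135 the medians were 0.929 and 0.640 (-31.1%), and in 55-99383 they were 1.02 and 0.705 (-30.6%). All 23 eribulin cells of the latter 2 lay below the untreated median of their lineage, so the lower signal was also present in the lineages under 2 times their untreated share. Barcode 95-33662 had 0.956 in 6 untreated cells and 0.674 with eribulin (-29.5%). The changes were smaller in 6-93034, from 0.842 to 0.674 (-20.0%), and in 55-23349, from 0.822 to 0.666 (-19.0%). In these 2 the untreated median was already below that of the library (0.907), and 91.3% and 91.1% of their eribulin cells lay under it.

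The medians of the lineages covered a narrower range with eribulin than without drug. The 2 ranges rest on different sets, with 6 to 57 cells per untreated lineage and 11 to 438 per eribulin lineage. Cells of the whole multiome library also varied less with eribulin, with quartiles of 0.607 and 0.739 against 0.816 and 1.01. The 6 untreated medians ranged from 0.822 to 1.02, and the medians of all 10 members with eribulin from 0.631 (29-49561) to 0.705 (55-99383), around a library median of 0.668. Within cluster 0 alone the medians of the 9 members with at least 5 cells ranged from 0.642 (39-41529) to 0.690 (55-37135). In cluster 11, its second cluster, 39-41529 had 0.623 (34 cells) against 0.660 in the 32 called cells of other barcodes. In cluster 12, 6-93034 had 0.676, and the other called cells had 0.677. Both untreated cells of 76-49517 had values under the untreated library median, 0.810 and 0.865, and its 438 eribulin cells had a median of 0.670. In eribulin scATAC the 5 members with at least 5 cells had medians of 0.710 (95-33662) to 0.781 (6-93034), around the library's 0.756. Fragment lengths depend on the transposition and size selection of each library, and 1 library per group cannot tell these apart from the drug.

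Depth differed most for 55-23349. Its 146 eribulin multiome cells had a median of 10989 cut sites in peaks (quartiles 6233 and 19211), against 5575 in the called cells of other barcodes, and 82 of them (56.2%) had 10000 or more, against 26.4%. The difference was as large within cluster 0, at 10987 against 5289 cut sites. It was not a property of the lineage in each library: the 19 untreated multiome cells had a median of 3297, under the library's 5217, and the 30 eribulin scATAC cells had 5364, under the library's 6049. Both name forms of 55-23349 were deep, with 11244 and 10733 cut sites. Among eribulin multiome cells with at least 5000 cut sites the share of 55-23349 was 14.9% in place of 10.5%. The medians of the other 9 members ranged from 4827 (55-37135) to 7059 (39-41529), all above the library's 4229.5, but 7 of these 9 lay below the 5957 of all called cells. Cells called as doublets in that library, which were left out, had a median of 12541.

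Against their own untreated cells, 4 of 6 lineages had more cut sites with eribulin: 55-23349, 6-93034 (4134 and 5628), 95-33662 (4221 and 5559) and 39-41529 (6588 and 7059). In 55-99383 (5427 and 5352) and 55-37135 (6352 and 4827) the eribulin median was lower. Over all called multiome cells the median was also higher with eribulin (5426.5 and 5957), whereas over the whole libraries it was lower (5217 and 4229.5). Barcodes 55-23349 and 6-93034 were the shallowest members without drug. The enrichment of cuts at transcription start sites, a measure of how well the cuts fall in open promoters, varied little. Its medians were 4.89 to 5.25 in the 6 untreated and 4.79 to 5.45 in the 10 eribulin lineages of the multiome run, where the libraries had 5.01 and 5.07. The highest value was that of 89-6288 and the lowest that of 55-37135.

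On the UMAP, a map without unit on which cells of like accessibility lie close together, the 6 lineages with at least 5 cells in both multiome libraries had different median positions in untreated and eribulin cells. The distance between the median positions of untreated and eribulin cells was 5.73 for 6-93034, 6.86 for 55-23349, 6.91 for 95-33662 and 8.55 for 39-41529. It was longest for 55-99383 (9.31) and 55-37135 (11.2), and 8.23 for the multiome libraries as a whole. The 3 longest of these shifts belonged to the 3 lineages based in cluster 2 without drug. The median distance between the centres of 2 lineages was 3.16 over 15 pairs of 6 lineages in untreated cells and 0.928 over 45 pairs of 10 lineages in eribulin cells. The map and the clusters come from the same components, so the map is no independent evidence.

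The spread of a lineage, the median distance of its cells from their median position, was smaller with eribulin in all 6 lineages that could be compared. The same held for the whole multiome libraries (2.62 untreated, 1.52 eribulin) and for all called cells (2.65 and 1.97). In untreated and eribulin multiome cells the spread was 3.47 and 1.45 in 55-23349 and 3.25 and 1.88 in 39-41529. It was 2.77 and 1.55 in 6-93034 and 2.88 and 2.23 in 95-33662. In 55-37135 it was 2.63 and 1.44, and in 55-99383 2.54 and 0.881. The ordering in the lineages did not hold among cells with at least 5000 cut sites. At that depth 2 of 5 lineages, 55-99383 and 55-37135, were less spread with eribulin, on only 6 and 5 eribulin cells. There 39-41529 had 2.30 without and 2.48 with eribulin, 6-93034 had 1.60 and 1.62, and 55-23349 had 0.794 and 1.27, on 6 untreated cells each in the last 2. The whole libraries kept their order at that depth, with 2.63 and 1.71. Among eribulin multiome cells, 95-33662 (2.23) and 55-98358 (2.24) were the most spread lineages and 55-99383 the least. Cells of 1 lineage lay closer to each other than to cells of other barcodes in 5 of the 10 members with eribulin and in 5 of 6 without drug. With eribulin the difference was largest for 55-23349, with median distances of 2.49 and 3.19. In eribulin scATAC, where the library's spread was 3.04, it was 3.34 in 55-23349, 3.09 in 76-49517 and 3.06 in 39-41529, and it was lower in 6-93034 (2.37, 8 cells) and 95-33662 (1.35, 6 cells).

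At the threshold of 10 eribulin multiome cells, 55-37135 with 11 and 55-99383 with 12 were the members just inside. The barcodes just outside were 71-88522, with 9 eribulin and 3 untreated multiome cells, and 29-33048, with 6 and 1. Their shares were 0.647% and 0.431% of the called eribulin cells and 0.0629% and 0.0210% of the untreated ones. Both therefore stood further above their untreated share than the 2 members just inside, and neither was called in a scATAC library.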

How the data were processed

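Accessibility was measured in 4 libraries of PB3 cells, grouped by sample title and treatment label. The deposited data cover 43782 cells with their map positions, and the library of 10000000 lentiviral tags, each 48 bases long, was used for the sequences. Per the series' design text, matrices were made with cellranger-atac 1.2.0 (run 1) and cellranger-arc 1.0.0 (run 3) on mm10 and analysed with Signac 1.1.1, and versions 3.1.0 and 4.0.0 of Cell Ranger stand in the submitters' processing notes. The same text states that the authors removed cells by depth in peaks, blacklist share, nucleosome signal and TSS enrichment, and built clusters and map from LSI components. The steps of barcode calling and integration were not given in the sources used here. The deposited counts are raw whole numbers of cut sites in peaks for each cell. Nucleosome signal and TSS enrichment are each a ratio computed by the authors, and the map positions are a deposited score with no unit, per the file headers. Libraries held 49446970 to 127710435 cut sites.

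The varying spellings of a barcode name were joined by its short and long part numbers. Shares use only cells with a single called barcode, so negative, doublet, multiplet and unmapped calls do not enter. Shares, exact intervals, exact conditional intervals of ratios, medians over cells and distances on the map were computed with Python 3.11.15, pandas 2.3.3, numpy 2.4.6 and scipy 1.17.1. A count of 0 was given a limit of 3 counts, and a ratio against 0 was computed against that limit. Medians are given from 5 cells. The ratio intervals and the spread were tested on simulated data. With 1 library per group no test was made. All 10 members are named, and of other barcodes those with 5 to 9 eribulin multiome cells. The members and lists were chosen with earlier results of these data known. Alternatives changed the name form, depth, denominator, member minimum, cluster weighting and summary.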

Additional observations from a re-analysis of the deposited data

How the results depend on the processing

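The summed share of the 10 barcodes depended on the denominator by construction. Over all cells of a library it was 1.82% in untreated and 16.7% in eribulin multiome and 0.0214% and 0.502% in scATAC. With a minimum of 5 eribulin multiome cells it was 98.3% in eribulin multiome, and with a minimum of 20 it was 94.2%, with 1.66% in untreated multiome. The number of members at 2 times or more was 8, but 5 with names without a sequence alone and 10 with names with a sequence. Among names without a sequence 4 members have no cells, and of these 55-98358 and 29-49561 belong to the 8. Barcode 89-6288 has 3 such cells, too few for the comparison. Of the members' eribulin multiome cells 63.2% lay in cluster 0, and 58.7% of those named with a sequence. Lineages less spread with eribulin numbered 6 of 6, and 2 of 5 at 5000 or more cut sites, and the cause was not tested. Under the other alternatives these summary values stayed within their intervals or within 1.5 times, also without droplet barcodes found in both multiome libraries, an alternative added after seeing the data. Of the values of single barcodes, 126 stayed within the interval or margin of the reported value and 43 did not: 15 with names with a sequence, 12 with names without one, 9 at 5000 or more cut sites, 5 without the most frequent member and 2 with clusters weighted by their cells. The multiome ratio of 95-33662 was 101, and 319 at 5000 or more cut sites, where it rests on 1 untreated cell in place of 6. Total fragments were not run because no such column was used. No paired analysis was possible because each group is 1 library and the groups share only 1 replicate number. Depth limits the scATAC shares, which rest on 29 and 84 called cells.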
